A study of Homo sapiens with 4 samples.

Results

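Matrix metalloproteinases (MMPs) and their tissue inhibitors (TIMPs) were followed in U87MG glioblastoma spheres with and without abemaciclib, a small-molecule inhibitor of the cell cycle kinases CDK4 and CDK6. The 10 genes were taken by gene name from the 60617 genes in the count files, and each name matched 1 row. Of them, 7 encode proteases (MMP1, MMP2, MMP3, MMP9, MMP12, MMP14 and MMP15) and 3 encode inhibitors (TIMP1, TIMP2 and TIMP3). U87MG is an established human glioblastoma line. The culture medium of every sphere was DMEM/F12 with the supplements N2 and B27 (the latter at 2%), bFGF at 20 ng/ml and EGF at 20 ng/ml, and collection was at day 14. The untreated group and the abemaciclib group each had 2 poly-A RNA libraries. The dose of abemaciclib, and whether the untreated spheres received a solvent, are not stated in the labels. Nor do the labels say that the libraries of a group came from separate cultures, and if they did not, the p-values reflect technical spread alone.

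MMPs are zinc-dependent enzymes that cut collagens, fibronectin, laminins and other matrix proteins, and many cell surface proteins and growth factor stores. They are made as inactive precursors, in which a cysteine of the propeptide blocks the zinc. TIMPs bind the active site of the mature enzymes. MMP14 sits in the cell membrane and, with TIMP2 as a bridge, activates the MMP2 precursor, and MMP2, MMP9 and MMP14 are well known for their part in glioblastoma invasion.

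Library totals were 23684260 to 33418075 expected counts (estimated reads per gene). GFAP, S100B and AQP4, markers of differentiated astrocytes, had at most 10 counts in any library. Other genes of the same list of 10 glial and glioma line markers were present, among them VIM and NES, which mark mesenchymal and progenitor cells, the glutamate transporter SLC1A3 (1659 and 1991 counts untreated, 835 and 1222 after the drug) and SOX9 (456 and 545, 253 and 315). Of the 7 that were tested, 6 were lower (39.3% of all tested genes), VIM (-0.45 ± 0.04, log2 of abemaciclib over untreated ± SE) and NES (-0.50 ± 0.04) among them. The 1 that was higher (38.0% of all tested genes) was SOX2, with 1 and 2 counts untreated and 11 and 12 after the drug. Transcripts encoded by the mitochondrial genome made up 4.27% and 4.66% of counts without the drug and 11.8% and 11.7% with it. With these genes removed before scaling, each member had the same direction of change and 9 of the 10 were called. The RNA is from bulk spheres, in which fewer cells of a type and less RNA per cell cannot be told apart.

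Levels are given as CPM, the standard unit of counts scaled to a common library size, here adjusted between libraries by the TMM method, and differences as log2 fold changes of abemaciclib over untreated with their standard error (SE) from edgeR's quasi-likelihood test. After the drug the inhibitors fell and most proteases did not. All 3 inhibitors were lower, 4 of the 7 proteases were higher, 2 were lower and 1 did not pass the test (adjusted p under 0.05, Benjamini-Hochberg over 17207 tested genes). That makes 9 of 10 members called, where 77.3% of all tested genes were called, 38.0% higher and 39.3% lower. Among the members, 6 were called with 2-fold or more (31.2% of all tested genes) and 5 with 4-fold or more (11.6%). The median absolute log2 fold change was 2.21 over the members and 0.63 over all tested genes. The signed median was -0.03 over the members and -0.01 over all tested genes. The values of the 2 groups did not overlap in any of the 10 members, as in 87.9% of all tested genes.

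**Figure D1:**
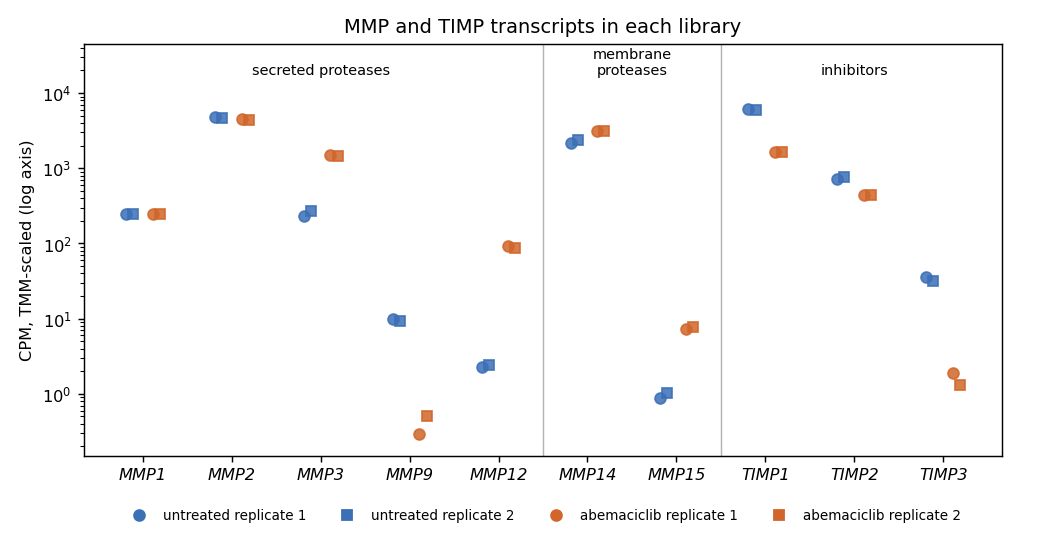
TMM-scaled CPM (log axis) of the 10 genes, with 1 point per library and no error bars, blue for untreated and orange for abemaciclib. MMP3, MMP12 and MMP15 sit higher in both abemaciclib libraries, MMP9 and the 3 TIMP genes sit lower, and MMP1 and MMP2 lie almost level.

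Promoter sequences were available from the RefSeq promoter table (GRCh38.p14) for 4 of the 10 members. All 4 are shown, and they include a pair that rose (MMP14 and MMP15) and a pair that fell (TIMP1 and TIMP3). Each line gives the 250 bases before the RefSeq start site, and capitals mark matches to the GC box GGGCGG on either strand (CCGCCC on the other). All 4 lie on the plus strand, at chr14:22836335-22836584, chr16:58025504-58025753, chrX:47582186-47582435 and chr22:32801455-32801704 in that order.
MMP14: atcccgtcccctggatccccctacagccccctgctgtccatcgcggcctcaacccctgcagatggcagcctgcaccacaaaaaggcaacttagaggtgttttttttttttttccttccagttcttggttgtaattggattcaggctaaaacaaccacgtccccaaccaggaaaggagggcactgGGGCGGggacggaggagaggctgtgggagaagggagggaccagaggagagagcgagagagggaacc
MMP15: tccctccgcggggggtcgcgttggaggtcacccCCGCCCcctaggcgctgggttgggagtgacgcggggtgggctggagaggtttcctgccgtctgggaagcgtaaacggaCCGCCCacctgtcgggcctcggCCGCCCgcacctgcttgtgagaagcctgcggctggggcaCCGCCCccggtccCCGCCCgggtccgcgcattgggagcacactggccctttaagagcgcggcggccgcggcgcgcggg
TIMP1: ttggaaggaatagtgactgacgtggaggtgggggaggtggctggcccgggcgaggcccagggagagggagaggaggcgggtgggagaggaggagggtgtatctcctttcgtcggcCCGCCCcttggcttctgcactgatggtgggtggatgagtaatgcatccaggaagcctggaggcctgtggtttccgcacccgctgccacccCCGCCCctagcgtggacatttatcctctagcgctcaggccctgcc
TIMP3: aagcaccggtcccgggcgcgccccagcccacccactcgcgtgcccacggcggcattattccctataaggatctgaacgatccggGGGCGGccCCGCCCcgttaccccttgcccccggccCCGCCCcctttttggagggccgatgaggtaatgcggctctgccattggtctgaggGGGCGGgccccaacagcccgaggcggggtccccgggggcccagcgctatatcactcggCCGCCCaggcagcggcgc
The search covered these bases and the 50 after the start site. MMP14 held 1 GC box, TIMP1 held 2, and MMP15 and TIMP3 held 5 each, so the number of matches did not separate the pair that rose from the pair that fell. Of 35116 RefSeq windows of the same length, 45.0% held at least 1 GC box. The AP-1 element TGANTCA, which binds FOS and JUN dimers and is well known in several MMP promoters, had 0 matches on either strand in the 4 windows and was present in 7.71% of all windows. Variants of this element were not searched, so 0 matches does not mean that a promoter lacks an AP-1 site. The TATA box TATAAA also had 0 matches, and 11.5% of all windows held it. GC content was 55.0% for MMP14, 75.3% for MMP15, 65.0% for TIMP1 and 72.7% for TIMP3, against a median of 58.7% over all windows.

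Among the secreted proteases, MMP12, the macrophage elastase, changed most. MMP12 (ENSG00000262406, GRCh38 chr11:102862736-102875034) was at 2.30 and 2.44 CPM untreated and at 93.5 and 88.1 CPM after the drug. Both abemaciclib libraries lay far above both untreated ones, which made it 38.1-fold higher (5.25 ± 0.08 on the log2 scale, edgeR adjusted p = 1.90e-31). Of the tested genes, 1.08% had a larger change in either direction. MMP3, stromelysin-1, which cuts matrix proteins and activates other MMP precursors (ENSG00000149968, chr11:102835801-102843803), was at 230.0 and 271 CPM untreated and at 1492 and 1470.1 CPM after the drug. It rose 5.90-fold (log2 2.56 ± 0.11, edgeR adjusted p = 5.99e-04). The untreated libraries differed from each other more for MMP3 than for MMP1 or MMP2, and the estimate was 2.45 without untreated replicate 1 and 2.68 without untreated replicate 2. MMP9, gelatinase B, which degrades basement membrane collagen (ENSG00000100985, chr20:46008908-46016561), moved the opposite way. It had 267 and 303 counts untreated (9.89 and 9.26 CPM) and 7 and 17 counts after the drug (0.29 and 0.50 CPM). That is a 22.9-fold fall (log2 -4.52 ± 0.22, edgeR adjusted p = 2.39e-18), and the low counts left after the drug limit its precision.

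The other 2 secreted proteases stayed close to their untreated level. MMP1, interstitial collagenase (ENSG00000196611, chr11:102789920-102798160), was at 246.05 and 244.24 CPM untreated and 246.29 and 249.92 CPM after the drug, so that the groups missed overlapping only narrowly. Its log2 fold change of 0.02 ± 0.03 did not pass the test (edgeR adjusted p = 0.610), and of the tested genes 98.3% had a larger change. MMP2, gelatinase A (ENSG00000087245, chr16:55389700-55506691), was at 4745 and 4665 CPM untreated and 4461 and 4452 CPM after the drug. The fall was small (log2 -0.08 ± 0.03) and passed the test (edgeR adjusted p = 0.0181, range over 11 alternatives 3.42e-06 to 0.455). Its call was lost with scaling by library totals alone (log2 -0.02, adjusted p = 0.455), without abemaciclib replicate 1 (adjusted p = 0.326) and without abemaciclib replicate 2 (adjusted p = 0.305). MMP1 was called higher at 0.07 with library totals alone (adjusted p = 0.0385), and in none of the other 10 alternatives (range over the 11, 0.0385 to 0.802).

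Both membrane-anchored proteases rose. MMP14, the collagenase that activates MMP2 (ENSG00000157227, chr14:22836557-22849027), went from 2147 and 2364 CPM to 3177 and 3122 CPM. This was a 1.40-fold rise (log2 0.48 ± 0.04, edgeR adjusted p = 1.00e-09). MMP15, a close relative of MMP14 (ENSG00000102996, chr16:58025566-58046901), had 24 and 34 counts untreated (0.89 and 1.04 CPM) and 173 and 262 counts after the drug (7.19 and 7.73 CPM). It rose 7.68-fold (log2 2.94 ± 0.19, edgeR adjusted p = 6.51e-15) and remained a low transcript.

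The inhibitors all fell, by very different amounts. TIMP1, a secreted inhibitor of most MMPs that is also known as a growth-promoting factor (ENSG00000102265, chrX:47582313-47586789), was at 6060.3 and 5975 CPM untreated and at 1656 and 1655 CPM after the drug. The fall was 3.63-fold (log2 -1.86 ± 0.03, edgeR adjusted p = 1.40e-30), and the libraries within a group agreed closely. TIMP2, the bridge between MMP14 and the MMP2 precursor (ENSG00000035862, chr17:78852977-78925387), went from 712 and 758 CPM to 446 and 448 CPM, a 1.65-fold fall (log2 -0.72 ± 0.03, edgeR adjusted p = 3.54e-19). TIMP3, which binds to the matrix and also inhibits ADAM17 and several ADAMTS proteases (ENSG00000100234, chr22:32801701-32863043), had 957 and 1042 counts untreated (35.4 and 31.8 CPM). After the drug it had 45 and 44 counts (1.87 and 1.3 CPM), a 21.8-fold fall (log2 -4.44 ± 0.12, edgeR adjusted p = 6.57e-24). Of the tested genes, 1.89% had a larger change than TIMP3, 13.2% a larger one than TIMP1 and 44.8% a larger one than TIMP2.

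**Figure D2:**
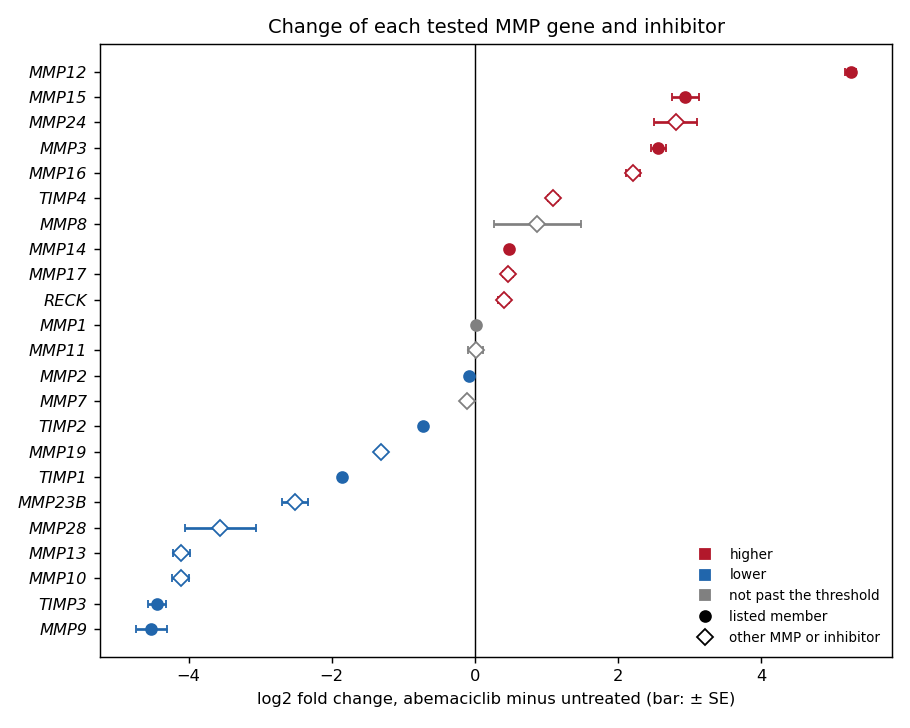
Log2 fold change (abemaciclib minus untreated, bars ± SE from edgeR, 2 libraries per group) of the 10 members (filled circles) and of the other tested MMP genes, TIMP4 and RECK (open diamonds). Colours show genes past the adjusted p threshold; MMP12 has the highest value at 5.25 and MMP9 the lowest at -4.52.

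TIMP1 and TIMP3 lie inside introns of the synapsin genes SYN1 and SYN3, and TIMP4 overlaps SYN2, each on the opposite strand. SYN1, which encodes a synaptic vesicle protein, had 33 and 63 counts untreated and 22 and 58 after the drug (log2 -0.23 ± 0.31, edgeR adjusted p = 0.498). SYN2 had 18 to 25 counts in the 4 libraries (log2 0.32 ± 0.38, edgeR adjusted p = 0.450). SYN3 had 3 and 5 counts untreated and 0 in both abemaciclib libraries, too few to test. The counts of SYN1 were far below those of TIMP1 (163642 and 195530 untreated, 39862 and 56071 after the drug), and those of SYN3 below those of TIMP3. Exons of MMP1 and MMP3 overlap exons of the pseudogene WTAPP1 on the opposite strand, those of MMP9 overlap SLC12A5-AS1 and those of TIMP2 overlap AC022966.1. How the counting treated strand is not stated in the labels or file headers, so reads of these pairs may not be told apart. On the same strand, exons of MMP2 overlap AC007336.3 and exons of TIMP2 overlap CEP295NL, and MMP2, MMP3 and TIMP2 had fractional counts in 4, 3 and 2 of the 4 libraries.

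To compare levels between genes, CPM were divided by the length of the principal transcript in GENCODE 29. In untreated spheres the order per kb was TIMP1 (6746 CPM per kb), MMP2 (1258), MMP14 (604), TIMP2 (201), MMP1 (124), MMP3 (124), TIMP3 (7.31), MMP9 (4.10), MMP12 (1.26) and MMP15 (0.23). MMP1 and MMP3 could not be ordered, since the 2 MMP3 libraries (114 and 134 CPM per kb) lay on either side of those of MMP1. After the drug the order was TIMP1 (1856), MMP2 (1191), MMP14 (844), MMP3 (735), MMP1 (126), TIMP2 (122), MMP12 (48.4), MMP15 (1.75), TIMP3 (0.34) and MMP9 (0.17). The neighbours MMP14 and MMP3 changed places when all annotated exons were taken as the length (705 and 723 CPM per kb). Among 17041 tested genes with a length, TIMP1 ranked 3 in the untreated mean and 20 after the drug, and MMP12 moved from rank 12253 to rank 1452.

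Setting proteases against inhibitors, the summed levels per kb changed order. The 7 proteases summed to 2088 and 2144 CPM per kb untreated and to 2960.4 and 2932 after the drug. The 3 inhibitors summed to 6997 and 6913 CPM per kb untreated and to 1979 in both abemaciclib libraries. The protease to inhibitor ratio was therefore 0.298 and 0.310 untreated and 1.5 and 1.48 after the drug. In CPM not divided by length, the ratio was 1.08 and 1.12 untreated and 4.5 and 4.46 after the drug, a difference of 2.03 on the log2 scale. The direction was the same on both scales, while the side of 1 on which the untreated spheres lay was not. These are transcript sums over the 10 members, with no test, and they do not measure enzyme activity.

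TIMP1 carried most of the inhibitor sum in CPM, at 89.0% and 88.3% untreated and 78.7% in both abemaciclib libraries. With TIMP1 taken out of the sum, the difference was 1.11 on the log2 scale. Among the proteases, the MMP2 share of CPM went from 64.3% and 61.7% to 47.1% and 47.4%, and the MMP3 share from 3.12% and 3.59% to 15.7% in both. The transcripts of the MMP2 activation complex also shifted against each other. Per kb, MMP14 stood at 2.95 and 3.05 times TIMP2 untreated and at 6.96 and 6.82 times after the drug, and MMP2 at 6.5 and 6.0 times TIMP2 untreated and at 9.76 and 9.70 times after it.

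**Figure D3:**
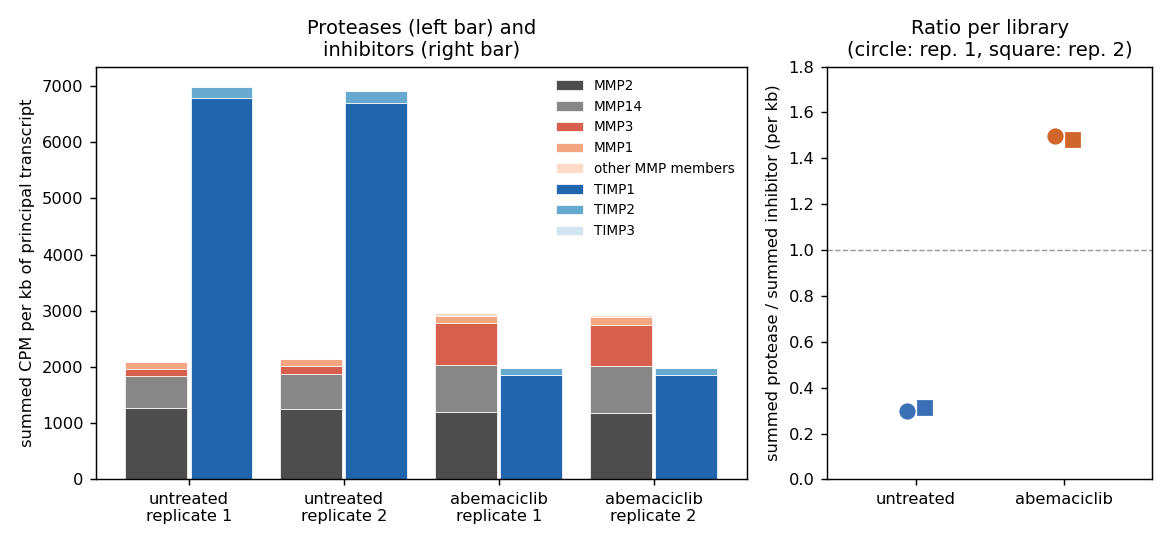
Left, summed CPM per kb of principal transcript in each library, stacked by gene, for proteases (left bar) and inhibitors (right bar); right, the ratio of the sums, 1 point per library, with a dashed line at 1. The inhibitor bar drops from 6997 and 6913 to 1979 and the ratio moves from 0.298 and 0.310 to 1.5 and 1.48.

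MMP1, MMP3 and MMP12 belong to a run of 9 MMP genes in 435.2 kb of chromosome 11 (GRCh38 chr11:102520508-102955734), all on the minus strand. The genes of this run did not all move in the same direction. In order of position, MMP10 (stromelysin-2) fell from 30.8 ± 2.61 to 1.77 ± 0.04 CPM (mean ± SD, n = 2; log2 -4.11 ± 0.12 SE, edgeR adjusted p = 3.88e-24). MMP1, 9.3 kb further on, did not pass the test. MMP3, at 37.6 kb from MMP1, and MMP12, at 18.9 kb from MMP3, rose. MMP13 (collagenase 3), at 68.0 kb from MMP12, fell from 30.6 to 1.78 CPM (log2 -4.10 ± 0.12, edgeR adjusted p = 5.14e-24). At the other end MMP7 (matrilysin) was at -0.10 ± 0.05 on the log2 scale and not called (edgeR adjusted p = 0.0666), although it was called lower without abemaciclib replicate 2 (-0.16, adjusted p = 0.0318, range over 11 alternatives 0.0318 to 0.557). MMP8 had 1 to 13 counts per library (0.87 ± 0.60, edgeR adjusted p = 0.191), and MMP20 and MMP27 had at most 3 counts in any library. MMP3 and MMP10 are similar in sequence, so some of their reads may have been split between them by the counting.

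**Figure D4:**
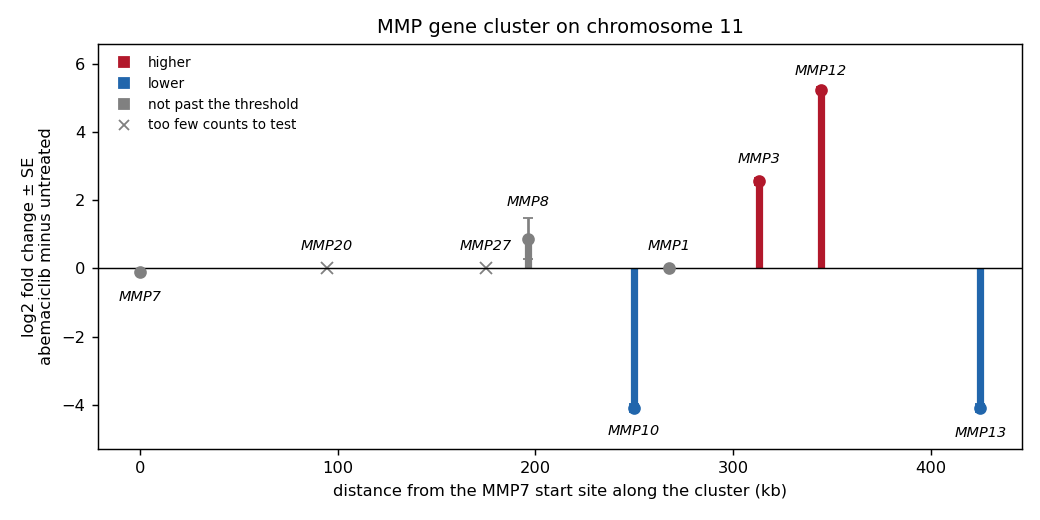
Log2 fold change (abemaciclib minus untreated, ± SE, 2 libraries per group) of the 9 MMP genes of the chromosome 11 run, placed by distance in kb from the MMP7 start site. MMP10 and MMP13 reach -4.11 and -4.10, with MMP1 near 0 and MMP3 and MMP12 at 2.56 and 5.25 between them; crosses mark genes with too few counts to test.

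Of 16 other MMP genes 11 were tested, of which 3 were called higher and 5 lower, a share called near the 77.3% of all tested genes. Their median log2 fold change was -0.10. The membrane-type protease MMP16 rose from 4.61 to 21.3 CPM (log2 2.21 ± 0.10), MMP24 from 0.43 to 3.07 CPM (2.80 ± 0.30) and MMP17 from 21.1 to 29.3 CPM (0.46 ± 0.07). With MMP14 and MMP15, 5 of the 5 tested genes for membrane-type MMPs were higher (38.0% of all tested genes), a grouping made after the values were seen, and MMP25 had too few counts to test. MMP28 (-3.55 ± 0.50), MMP23B (-2.51 ± 0.18) and MMP19 (-1.31 ± 0.05) fell, and MMP11 was at 0.01 ± 0.10. MMP28 had 5 and 2 counts left after the drug, and its value was -4.54 without abemaciclib replicate 1 and -2.80 without abemaciclib replicate 2. MMP23B has the near-identical copy MMP23A, with which the counting may have shared reads. TIMP4, the inhibitor outside the 10 members, rose from 15.5 and 15.7 to 31.3 and 34.9 CPM (1.09 ± 0.07), against the direction of TIMP1, TIMP2 and TIMP3. RECK, a membrane-anchored MMP inhibitor, rose slightly, from 17.4 and 17.3 to 22.5 and 23.3 CPM (0.40 ± 0.07). The edgeR adjusted p of the genes of this paragraph given as higher or lower did not exceed 1.5e-05.

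Genes around the protease system were counted in lists chosen with earlier results of these data known. Across 7 lists with 79 distinct tested genes, the other MMP genes included, 22 were called higher and 48 lower. That is 88.6% called, against 77.3% of all tested genes (38.0% higher and 39.3% lower), which is the background for each count that follows. Of 12 tested genes for other inhibitors and clearance 5 were higher and 6 lower, with a median of -0.43. The broad protease inhibitor A2M (-5.11 ± 0.25), the plasmin and MMP inhibitor TFPI2 (-3.33 ± 0.09) and thrombospondin THBS1 (-1.99 ± 0.33) fell. A2M had 5 and 9 counts left after the drug and THBS1 had 13 and 15. PCOLCE2, which enhances procollagen processing and is not an MMP inhibitor, rose from 92.8 to 223 CPM (1.27 ± 0.03). Its relative PCOLCE, the more abundant of the pair, fell from 914 to 416 CPM (-1.135 ± 0.03). Of 11 inducers and activators 6 were higher and 5 lower (38.0% and 39.3% of all tested genes), with a median of 0.13. FURIN, the convertase that removes the MMP14 propeptide, fell from 303 to 145 CPM (-1.07 ± 0.03), and BSG, a surface inducer of MMPs, from 1154 to 769 CPM (-0.59 ± 0.03). The related convertase PCSK7 (1.42 ± 0.04), the plasminogen activator PLAU (1.53 ± 0.03), CLDN1 (2.23 ± 0.50) and the lysosomal collagenase CTSK (2.63 ± 0.03) rose. CLDN1 was a low transcript, with 5 counts in each untreated library and 15 and 32 after the drug. Of 10 ADAM and ADAMTS proteases, several of which TIMP3 inhibits, 5 were higher and 4 lower. The 5 higher were ADAMTS5 (0.79 ± 0.07), ADAM15 (0.73 ± 0.04), ADAMTS1 (0.73 ± 0.04), ADAM9 (0.51 ± 0.04) and ADAM17 (0.49 ± 0.05). The 4 lower were ADAM8 (-1.33 ± 0.04), ADAMTS4 (-0.72 ± 0.08), ADAM12 (-0.23 ± 0.04) and ADAM10 (-0.20 ± 0.05). Apart from ADAM10 (edgeR adjusted p = 7.76e-04), all genes named here had an edgeR adjusted p of 1.73e-04 or less.

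In the list of transcription factors known to bind MMP promoters, made up of AP-1 factors, ETS factors and the Runt factor RUNX2, 12 of 14 were lower and 2 higher (39.3% and 38.0% of all tested genes), with a median of -0.75. ETV4 (-4.44 ± 0.08, edgeR adjusted p = 6.31e-30), FOS (-3.57 ± 0.39, 0.0115) and FOSB (-3.93 ± 0.51, 0.0161) fell and ETV5 rose (0.61 ± 0.04, 4.63e-14). The call for FOSB was lost without abemaciclib replicate 2 (edgeR adjusted p = 0.124, the highest of its 11 alternatives). Of 19 tested MMP substrates 16 were called lower and 1 higher (39.3% and 38.0% of all tested genes), and their median was -1.48, against -0.01 over all tested genes. Of 9 tested fibroblast and pericyte markers 6 were lower and 2 higher (39.3% and 38.0% of all tested genes), with a median of -0.38. They summed to 3750 and 3650 CPM untreated and 2260 and 2170 CPM after the drug. COL1A1, COL3A1, DCN (-2.79 ± 0.04) and LUM (-1.24 ± 0.04), all lower, are on both lists. On the marker list alone, PDGFRB (-2.16 ± 0.03) and PDPN (-0.29 ± 0.04) were lower. CSPG4 (0.31 ± 0.04) and ACTA2 (0.12 ± 0.04) were higher, and RGS5 (0.21 ± 0.18) did not pass the test. The part of fibroblast and pericyte markers in the fall of the substrates was not tested. The basement membrane collagens COL4A1 (-5.26 ± 0.11) and COL4A2 (-4.43 ± 0.06) and the elastic fibre protein ELN (-4.15 ± 0.21), a substrate of MMP12, fell, while the surface proteoglycan SDC1 rose (3.27 ± 0.04). For COL4A1, COL4A2, ELN and SDC1 the edgeR adjusted p did not exceed 1.58e-17.

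**Figure D5:**
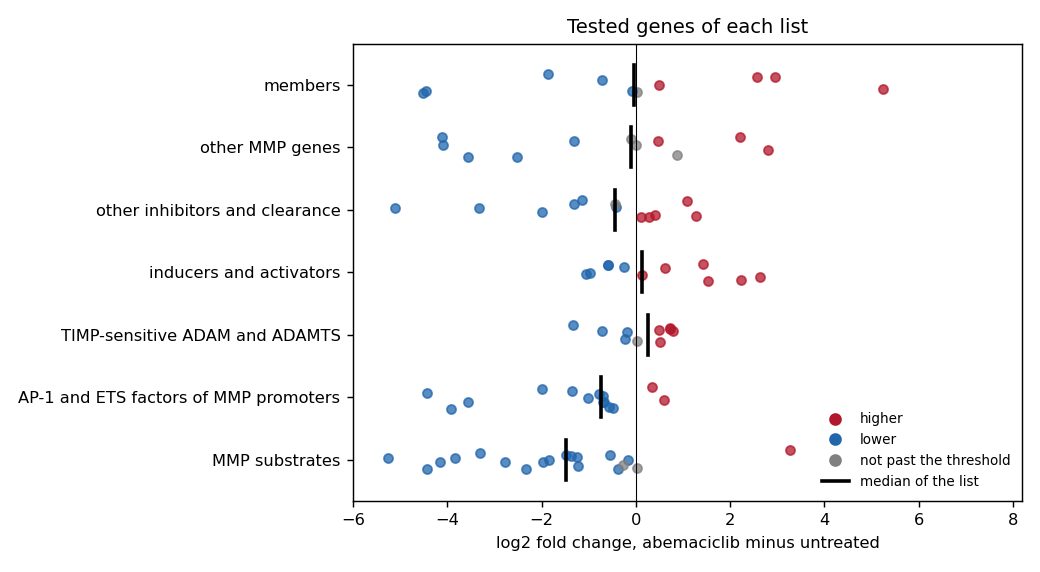
Log2 fold change (abemaciclib minus untreated) of each tested gene in the members and in 6 of the lists, with 1 point per gene, shifted vertically at random for legibility, and a black bar at the list's median. The members spread on both sides of 0 (median -0.03), and the substrates lie mostly below it (median -1.48).

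MMP12 and MMP9 are also products of macrophages, neutrophils and osteoclasts, so markers of these cells were read beside them. The 12 macrophage and microglia markers summed to 12.7 and 13.4 CPM untreated and 8.85 and 8.35 CPM after the drug, with 2 higher and 2 lower of 4 tested. Over all tested genes 38.0% were higher and 39.3% lower, the background for each marker count of this paragraph. AIF1 was at 0 counts in all 4 libraries, and TYROBP, SPI1 and P2RY12 had at most 4 counts in any. PTPRC went from 4 and 3 counts to 18 and 14, a call lost without abemaciclib replicate 1 (edgeR adjusted p = 0.0567, the highest of its 11 alternatives), and CD163 from 11 and 9 to 31 and 51, while CSF1R fell (-1.02 ± 0.12, edgeR adjusted p = 2.67e-09). The 8 neutrophil markers summed to 3.56 and 4.77 CPM untreated and 0.83 and 0.35 CPM after the drug, with 3 of 3 tested lower and MPO at 0 or 1 count. These 3 had few counts: ELANE (55 and 65 untreated, 3 and 2 after the drug), S100A8 (11 and 26, 5 and 0) and S100A9 (29 and 58, 4 and 0). S100A12, with too few counts to test, went from 0 and 1 to 5 and 10. The part of neutrophil markers in the fall of MMP9 was not tested. The 9 osteoclast markers summed to 466 and 470 CPM untreated and 1390 CPM in both abemaciclib libraries, with 3 higher and 2 lower of 6 tested. Most of the rise in the sum was CTSK, which went from 153 to 944 CPM. ACP5 (3.92 ± 0.06), CTSK and ATP6V0D2 (5.81 ± 0.10) rose. DCSTAMP (-2.80 ± 0.47) and ITGB3 (-0.28 ± 0.03, from 304 to 250 CPM) fell, all with edgeR adjusted p of 3.81e-06 or less. NFATC1 had at most 1 count in any library, and CALCR, TNFRSF11A and OCSTAMP had at most 17. The part of osteoclast markers in the rise of MMP12 was not tested.

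The 3 tested genes whose pattern was most like that of MMP12 were ATP6V0D2, AL031429.1 and PSG4. Likeness was the Euclidean distance over the 4 libraries between log2 CPM values, with 0.5 CPM added and each gene centred on its mean. It was 0.37 for ATP6V0D2, a proton pump subunit with 25 and 41 counts untreated and 1484 and 2130 after the drug. It was 0.42 for AL031429.1, with 1 count in each untreated library and 511 and 761 after the drug, and 0.69 for PSG4, a pregnancy-specific glycoprotein with 13 and 3 counts untreated and 707 and 1078 after it. The log2 fold changes themselves were 5.81 for ATP6V0D2, 9.18 for AL031429.1 and 6.82 for PSG4, against 5.25 for MMP12. With 4 libraries in 2 groups this likeness mostly reflects a similar size of change once 0.5 CPM is added. That addition shrinks changes that start from very low levels.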

How the data were processed

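RSEM 1.3.1, STAR 2.7.2b and GRCh38 are named in the submitters' processing notes. The deposited files hold 1 library each and, per the file headers, give expected counts per gene, not scaled for depth or length. Neither the annotation release nor the strand setting is given in the sources used here. Reads that fit several genes are shared out among them. The counts were rounded to whole numbers and tested with edgeR 4.0.16 (limma 3.58.1, R 4.3.3) by the quasi-likelihood F test (filterByExpr, TMM, robust, group alone, two-sided), with Benjamini-Hochberg adjustment over 17207 genes. SE is the log2 fold change divided by the square root of F. Positions, lengths and overlaps came from GENCODE 29 (GRCh38), which matched 96.4% of the identifiers. Positions of named genes are gene bounds. Chi-square per degree of freedom between replicates was 3.56 (untreated) and 1.95 (abemaciclib), above sampling noise. The spread beyond sampling noise was small, with a common coefficient of variation of 2.86% from edgeR. Neither value can tell separate cultures from repeats of 1 culture. Total counts per library of 23684260 to 33418075 put 3 counts at 0.0886 to 0.125 CPM. In simulated data (16719 genes), 50 genes per fold size were changed, all above 1 CPM, with the spread taken from its fitted trend over genes. There 62% of 1.25-fold, 94% of 1.5-fold, 94% of 2-fold and 100% of 4-fold changes were recovered, and 5.41% of calls were false. In the real data 77.3% of tested genes were called, so these shares may not carry over to them or to genes of few counts. Members, lists and tests were chosen with earlier results of these data known. The named genes were all members, up to 4 called genes per list with the largest change (where all 4 moved one way and others moved the opposite way, 3 of them and the largest of the others), other tested MMP genes, the TIMP host genes, RECK, BSG, FURIN and the 3 nearest patterns to MMP12. TIMP4, PCOLCE, PCSK7, ADAM9, ADAM10, ADAM12, ADAM17 and ADAMTS4, and the marker genes, were added after their values were seen. Alternatives were DESeq2 1.42.0, limma-voom, other scalings, no filter, a replicate block and leaving out each library.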

Additional observations from a re-analysis of the deposited data

How the results depend on the processing

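Across 11 alternatives, MMP3, MMP9, MMP12, MMP14, MMP15, TIMP1, TIMP2 and TIMP3 kept their direction and their call, and between 8 and 9 members were called. MMP2 lost its call in 3 alternatives and MMP1 gained one in 1, as given above. The number of genes called over the whole table ranged from 11233 (DESeq2's own test) to 13789 (no filter). Replicate numbers are shared only as numbers. Deviations of same-numbered libraries correlated at 0.00223 over genes, and with the replicate block 9 members and 13108 genes were called. The log2 difference of 2.03 between the protease to inhibitor ratios was 2.29 per kb of principal transcript. In alternatives chosen after seeing the data it was 2.36 per kb of all annotated exons, 1.11 without TIMP1, 2.54 without MMP2, 1.96 without MMP14 and 1.83 without MMP3, which follows from the genes and weights in the sums.

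Of 869 values for 79 list genes under the alternatives, 843 kept direction and call, 13 lost a call, 5 gained one and 8 changed sign. The sign changes were in genes that did not pass the test. Among the named genes they were in MMP11, which ranged from -0.062 to 0.089 when each library was left out, and in SYN1, which ranged from -0.79 to 0.14. The cause was not tested. Leaving out a library leaves 1 group with 1 sample, which is then assumed to vary like the other group. MMP7 was called lower without abemaciclib replicate 2 (-0.16) and MMP8 higher only without untreated replicate 2 (log2 3.28, edgeR adjusted p = 0.0172, range over 11 alternatives 0.0172 to 0.890). Few counts limit MMP9 and TIMP3 after the drug and MMP12 and MMP15 before it, and with 2 libraries per group the spread rests on 2 residual degrees of freedom per gene before it is shared across genes.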
